A study of Homo sapiens with 11 samples.

Results

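The genes followed here are the sensors of double-stranded RNA and the interferon regulatory factors that act with them: DDX58, IFIH1, DHX58, TLR3, MAVS, EIF2AK2, IRF3, IRF7 and IRF9. They were taken by symbol, 9 of the 59087 genes in the count tables, and all 9 passed the filter on low counts that left 24023 genes for testing. TLR3 alone averaged under 5 CPM (counts scaled by library size), which left 8 members wherever genes were counted by fold. RNA was sequenced from 11 libraries of the estrogen receptor positive human breast cancer lines BT483, a ductal carcinoma line, and T47D-TamR, a line made from T47D cells by passage in tamoxifen and grown in tamoxifen since. All cultures shared 48 h without estrogen before treatment. In each line, cells were then transfected for 72 h (10 nM) with control small interfering RNAs (siRNAs, a non-targeting pool), with siRNA type 1 or type 2 against nemo-like kinase (NLK, a MAP kinase relative), or with the pool plus 0.5 µM tamoxifen, an antiestrogen. T47D-TamR cells were also treated, without siRNA, with the solvent DMSO, 0.5 µM VX-702 (known as a p38α inhibitor and labelled as acting on NLK) or with DMSO and 0.5 µM tamoxifen, for a time that the labels do not give. Each of the 11 groups was 1 library, 4 of BT483 and 7 of T47D-TamR. The labels name no second culture of any group, so the p-values speak only of the spread between these samples, with the other line, siRNA or tamoxifen pair standing in as replicate. In bulk RNA, fewer cells of a type and less RNA per cell cannot be told apart.

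Cells read double-stranded RNA as a sign of virus. In the cytosol the helicases RIG-I (gene DDX58, newer symbol RIGI) and MDA5 (IFIH1) bind it, LGP2 (DHX58) modulates both, and the mitochondrial adaptor MAVS passes the signal on, while the receptor TLR3 reads it in endosomes and the kinase PKR (EIF2AK2) stops translation through eIF2α. IRF3 and IRF7 then switch on interferon genes, and IRF9 joins STAT proteins in the factor that turns on interferon-stimulated genes, among them several of the sensors themselves.

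The reagents that distinguish the knockdown libraries are duplexes named by their sense strands in the protocol, 19 bases each. They are shown because the libraries that received them are compared throughout. Types 1 and 2 of the sample names are matched to these numbers by the numbering alone. A second supplier's version of siRNA 1 exists, and which version entered these cultures is not stated.
siRNA 1: gucaguaacagauccaaga
siRNA 2: gagcugaauuugaagacua
The strands hold 8 G or C and 3 U in siRNA 1 and 7 G or C and 5 U in siRNA 2. Whether this makeup bears on the results was not tested.

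Promoters are shown for 5 of the 6 members that RefSeq's promoter table (GRCh38.p14) held, from 250 bases before to 30 after the start of transcription. Capitals mark, on either strand, the letters GAAA, 2 of any base and GAAA, the core of the interferon-stimulated response element (ISRE) read by the complex that holds IRF9 and STAT2, or the shorter GAANNGAAA. The shorter motif was added after the sequences had been seen. The windows are chr9:32526167-32526446 (minus strand) for DDX58, chr2:162318655-162318934 (minus) for IFIH1, chr2:37156951-37157230 (minus) for EIF2AK2, chr14:24161015-24161294 (plus) for IRF9 and chr20:3846584-3846863 (plus) for MAVS.
DDX58: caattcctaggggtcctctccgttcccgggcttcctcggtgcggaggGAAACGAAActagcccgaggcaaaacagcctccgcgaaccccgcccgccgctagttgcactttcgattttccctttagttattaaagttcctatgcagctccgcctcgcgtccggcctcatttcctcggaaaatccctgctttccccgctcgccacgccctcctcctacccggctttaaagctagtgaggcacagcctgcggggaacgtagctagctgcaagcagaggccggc
IFIH1: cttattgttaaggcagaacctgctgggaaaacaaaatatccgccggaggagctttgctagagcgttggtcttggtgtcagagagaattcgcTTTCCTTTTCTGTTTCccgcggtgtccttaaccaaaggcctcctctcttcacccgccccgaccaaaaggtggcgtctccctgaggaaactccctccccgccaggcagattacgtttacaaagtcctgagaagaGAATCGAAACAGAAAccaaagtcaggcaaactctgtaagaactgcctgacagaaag
EIF2AK2: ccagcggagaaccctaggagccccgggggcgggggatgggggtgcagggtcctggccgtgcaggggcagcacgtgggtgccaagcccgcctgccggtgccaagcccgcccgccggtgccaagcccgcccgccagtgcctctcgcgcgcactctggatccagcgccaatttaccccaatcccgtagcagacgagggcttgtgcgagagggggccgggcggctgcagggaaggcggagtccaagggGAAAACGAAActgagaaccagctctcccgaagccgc
IRF9: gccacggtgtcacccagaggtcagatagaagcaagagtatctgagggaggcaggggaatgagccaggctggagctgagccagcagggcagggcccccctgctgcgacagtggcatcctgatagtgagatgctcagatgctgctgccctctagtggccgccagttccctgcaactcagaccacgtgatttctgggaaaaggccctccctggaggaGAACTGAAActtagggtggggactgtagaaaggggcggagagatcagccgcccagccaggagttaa
MAVS: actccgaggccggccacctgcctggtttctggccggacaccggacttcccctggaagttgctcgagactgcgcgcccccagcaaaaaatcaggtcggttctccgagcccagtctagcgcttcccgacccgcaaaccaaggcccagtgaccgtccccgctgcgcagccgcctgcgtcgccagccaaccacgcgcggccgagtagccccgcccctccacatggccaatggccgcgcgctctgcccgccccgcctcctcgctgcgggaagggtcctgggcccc

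The ISRE core was found in the promoters of 3 of the 6 members, IFIH1, TLR3 and EIF2AK2, against 3.57% of 35116 promoters of 300 bases. In IFIH1 it lay at -21 to -12 from the start and, on the other strand, in 2 overlapping copies from -159 to -144, and in EIF2AK2 it spanned the start. GAANNGAAA was found in DDX58, IFIH1 and IRF9 and in 7.66% of promoters, and its copy in IFIH1 (-26 to -18) overlaps the longer motif. Because it was added after these sequences had been seen, its count in the members cannot be weighed against that share. TTCNNNGAA, a core read by pairs of STAT proteins, was found in TLR3 and IRF9, likewise against 7.66%. None of these letters occurred in the MAVS window. A match is a description of letters and not of binding.

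Depth ran from 14637083 to 26915863 counts per library, so that 3 counts, the floor below which a value is not told from 0, were worth 0.111 to 0.205 CPM. The mitochondrial genome gave 9.18 to 11.5% of BT483 counts and 6.47 to 8.61% of T47D-TamR counts. As a check, NLK was reduced to 28.4% (type 1) and 18.04% (type 2) of control in BT483 and to 35.4% and 41.7% in T47D-TamR. All 8 luminal epithelial markers were above the floor in every library. The 9 leukocyte markers summed to 0.548 to 1.68 CPM in BT483 and 3.45 to 7.03 CPM in T47D-TamR. Among them TYROBP was at 0 counts in all 11 libraries, while ITGAM ran from 0.402 CPM to 5.38 CPM, its level with siRNA type 2 in T47D-TamR. CLEC4C and LILRA4, markers of the plasmacytoid dendritic cells that are known for high IRF7, were at 0 counts throughout. IL3RA, the remaining marker of that list, was at 0 counts in 4 libraries and reached 0.322 CPM with siRNA type 1 in BT483. The 7 fibroblast markers, mostly COL1A1, summed to 10.5 to 12.8 CPM and 50.5 to 74.04 CPM in the lines, and the 3 endothelial markers to at most 2.84 CPM. The part of these low marker levels in the results was not tested.

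All 9 genes were measured in every library, and in both lines the sensors, EIF2AK2 and IRF7 stood highest in the library transfected with siRNA type 2. DDX58 in BT483 measured 29.4 CPM (control siRNA), 43.9 (type 1), 119 (type 2) and 18.9 (control siRNA and tamoxifen). Transfected T47D-TamR cells had 49.5, 42.2, 88.6 and 32.8 CPM in this order. Untransfected ones had 18.8 (DMSO), 18.5 (VX-702) and 18.5 CPM (DMSO and tamoxifen), so that the 3 libraries that saw no siRNA were nearly equal and lay below the 4 transfected ones.

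IFIH1 had the same order of libraries in BT483, with 23.1 CPM (control siRNA), 35.3 (type 1), 97.3 (type 2) and 19.9 (control siRNA and tamoxifen). In T47D-TamR the transfected libraries held 39.6, 35.4, 63.4 and 23.3 CPM in that order, and the others 18.8 (DMSO), 14.3 (VX-702) and 13.7 (DMSO and tamoxifen). The transfected and untransfected libraries again did not overlap. RIG-I and MDA5 transcripts kept a narrow ratio: per length, in TPM (scaled by transcript length and library size), DDX58 stood at 1.04 to 1.54 times IFIH1 in the 11 libraries, while DDX58 itself ranged over 7.63-fold and IFIH1 over 8.09-fold.

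DHX58, whose product LGP2 binds RNA but lacks the signalling domains of the other helicases, varied less. Its BT483 levels were 30.4 (control siRNA), 43.7 (type 1), 67.1 (type 2) and 32.6 CPM (control siRNA and tamoxifen). The corresponding values in T47D-TamR were 23.1, 29.2, 45.4 and 29.3 CPM, with 13.7 CPM under DMSO, 17.1 under VX-702 and 14.6 under DMSO and tamoxifen. Unlike DDX58 and IFIH1, it was not lower with tamoxifen than with its control in any of the 3 pairs.

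TLR3 was close to the detection limit, and every BT483 library held more counts than any T47D-TamR library. The share of all genes that part the lines so was not counted. BT483 libraries held 17 counts (control siRNA), 21 (type 1), 103 (type 2) and 18 (control siRNA and tamoxifen), or 0.962, 1.35, 3.77 and 0.671 CPM. T47D-TamR libraries held 1, 0, 7 and 0 counts in that order, then 5 (DMSO), 0 (VX-702) and 1 (DMSO and tamoxifen). Libraries with 3 counts or fewer are not told from 0, which leaves 2 of the 7 T47D-TamR libraries above the floor. No TLR3 ratio was drawn between T47D-TamR libraries that both lie at or under it.

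MAVS, the adaptor through which both RIG-I and MDA5 signal, was the most abundant member in CPM. It stood at 387, 406, 413 and 391 CPM in the control siRNA, type 1, type 2 and tamoxifen libraries of BT483. In T47D-TamR it stood at 256, 272, 317 and 319 CPM in the transfected libraries and at 296 (DMSO), 350 (VX-702) and 340 (DMSO and tamoxifen) in the others. Its whole range was 1.07-fold within BT483 and 1.36-fold within T47D-TamR, and transfected and untransfected libraries overlapped.

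EIF2AK2, the kinase PKR, measured 132 (control siRNA), 169 (type 1), 260.1 (type 2) and 101 CPM (control siRNA and tamoxifen) in BT483. It stood at 151, 147, 208 and 119 CPM in the transfected libraries of T47D-TamR, and at 101 (DMSO), 92.2 (VX-702) and 92.4 (DMSO and tamoxifen) in the others. The type 2 library was the highest in both lines and the tamoxifen library the lowest of the transfected ones. Of its exonic bases, 3.7% lie opposite a pseudogene, AC007899.1, and 0.3% opposite GPATCH11; the kit marks strand, but the strand setting of the counting is not given in the sources used here.

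IRF3, which is made constantly and activated by phosphorylation, stood at 75.3, 69.7, 87.4 and 72.8 CPM in BT483 (control siRNA, type 1, type 2, tamoxifen). In T47D-TamR it stood at 92.1, 106, 96.3 and 96.0 CPM, then 85.4 (DMSO), 89.7 (VX-702) and 87.7 (DMSO and tamoxifen). Its range was 1.25-fold in BT483 and 1.24-fold in T47D-TamR. An opposite-strand gene, BCL2L12, covers 19.3% of its exonic bases.

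IRF7 is a factor that interferon itself induces. In BT483 it stood at 29.6, 37.7, 92.6 and 26.03 CPM in the same order, and in T47D-TamR at 27.5, 38.7, 56.5 and 34.5 CPM against 18.6 (DMSO), 21.1 (VX-702) and 19.9 (DMSO and tamoxifen). IRF9 was at 20.2, 25.5, 30.1 and 19.6 CPM in BT483, and in T47D-TamR at 8.01, 9.496, 12.5 and 8.75 CPM against 6.88, 6.24 and 6.05. Both were highest with type 2 in each line, and IRF9 in every BT483 library exceeded IRF9 in every T47D-TamR library. How many of all genes part the lines in this way was not counted, and the test between the lines called 70.7% of genes. IRF9 shares 48.4% of its exonic bases with a gene on the same strand, AL136295.5, so its counts are uncertain.

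**Figure D1:**
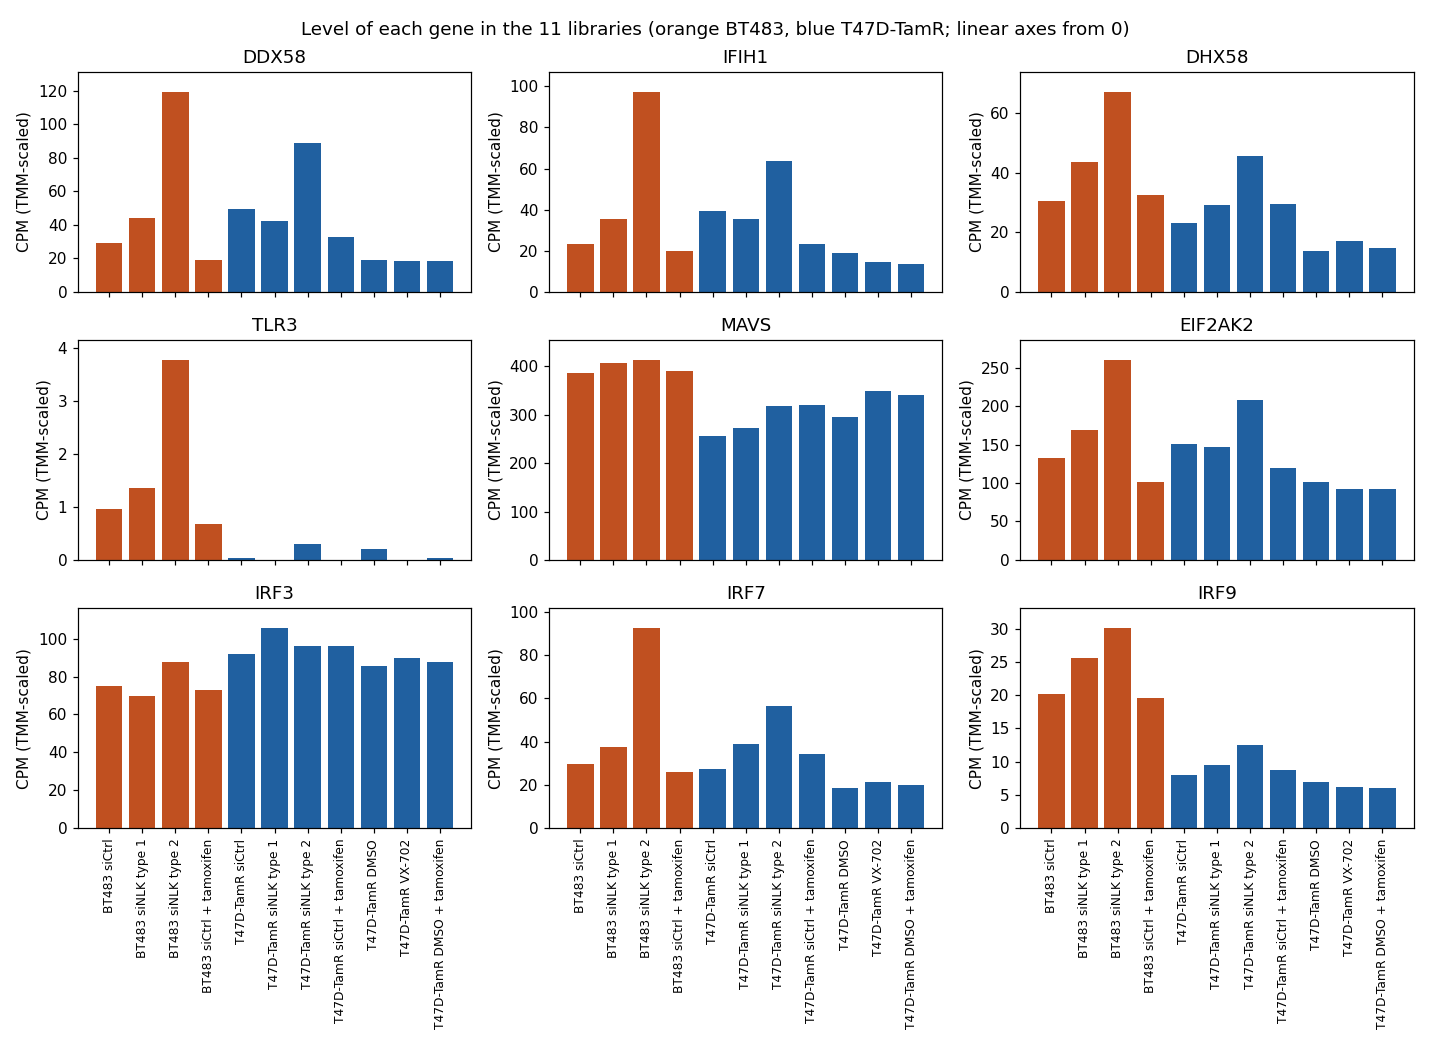
Level of each of the 9 genes (TMM-scaled CPM, linear axes from 0) in the 4 BT483 and 7 T47D-TamR libraries, 1 bar per library and no error bar because each group is 1 library. DDX58 reached 119 CPM with siRNA type 2 in BT483 and 88.6 CPM in T47D-TamR, while MAVS and IRF3 stayed within a 1.36-fold range in each line.

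Among the 8 members with at least 5 CPM, the type 2 library was the highest of its line in both lines for 6, against 10.8% of the 12253 genes at that level. The exceptions were MAVS and IRF3, which in T47D-TamR were highest with VX-702 and with siRNA type 1. All 4 transfected T47D-TamR libraries lay above all 3 untransfected ones for 7 of the 8, against 8.8% of genes, MAVS being the exception.

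Per length, the order of the genes also differed between libraries. In T47D-TamR with DMSO the TPM values fell from MAVS (70.2) through IRF3 (62.9), EIF2AK2 (26.3), IRF7 (19.9), DDX58 (11.3), IFIH1 (10.3), DHX58 (9.998) and IRF9 (5.07) to TLR3 (0.0831). In BT483 with control siRNA the order was MAVS (99.7), IRF3 (60.2), EIF2AK2 (37.4), IRF7 (34.4), DHX58 (24.1), DDX58 (19.2), IRF9 (16.2), IFIH1 (13.8) and TLR3 (0.434). With type 2 in BT483, IRF7 (106 TPM) stood level with MAVS (105 TPM), and DDX58 (77.2), EIF2AK2 (72.6) and IRF3 (69.2) came next. Neighbours in these orders cannot be told apart beyond spread, since each library stands alone. The adaptor's share of the 9 transcripts' summed TPM was 32.6% with control siRNA and 18.6% with type 2 in BT483.

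**Figure D2:**
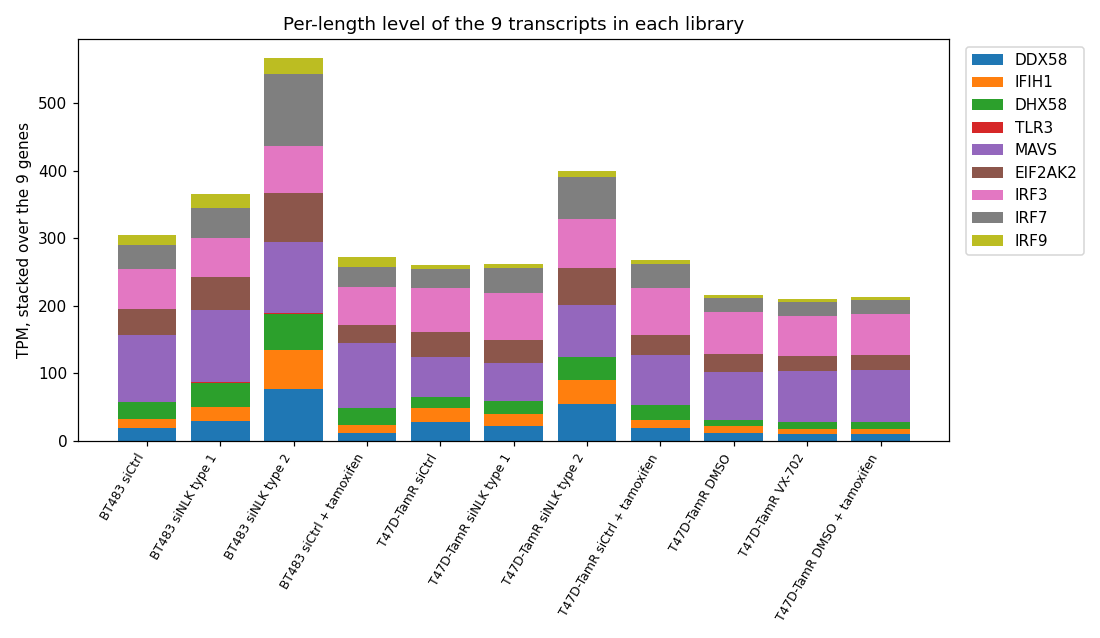
TPM of the 9 genes stacked for each library (linear axis from 0; TPM is per transcript length, so genes can be compared). The stack is tallest with siRNA type 2 in BT483, at 566 TPM against 305 TPM with control siRNA, and lowest in the 3 T47D-TamR libraries without siRNA, at 209.7 to 216 TPM.

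The comparison of each NLK siRNA with the control pool asked which genes respond to it, with the lines as replicates. With type 2, 4 of the 9 members rose, against 0.945% of the 24023 genes called in either direction (edgeR's quasi-likelihood test, Benjamini-Hochberg adjustment, adjusted p under 0.05). IFIH1 rose by a log2 fold change of 1.39 (SE 0.24, adjusted p = 0.0282) and IRF7 by 1.38 (SE 0.20, adjusted p = 0.00683). DHX58 rose by 1.04 (SE 0.15, adjusted p = 0.00652) and EIF2AK2 by 0.76 (SE 0.15, adjusted p = 0.034). Each of these 4 was higher with type 2 in both lines.

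DDX58 had a larger fitted change, 1.54 (SE 0.29), but did not pass (adjusted p = 0.0622). TLR3 stood at 2.05 (SE 0.67, adjusted p = 0.225) and IRF9 at 0.57 (SE 0.17, adjusted p = 0.181). MAVS (0.21, SE 0.13, adjusted p = 0.608) and IRF3 (0.15, SE 0.14, adjusted p = 0.759) had the smallest changes. The median of the 9 was 1.04 against 0.01 over all genes, and 7 had an unadjusted p under 0.05, against 11.3% of genes. DESeq2 called 5 of the 9, DDX58 being the fifth, while limma on the deposited log2 table called 0 of 8 tested, 6 of them with an unadjusted p under 0.05.

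These calls rested on few libraries. Without the BT483 type 2 library 0 of the 9 were called, with adjusted p of 0.148 for IFIH1, 0.088 for DHX58, 0.308 for EIF2AK2 and 0.092 for IRF7. Without the T47D-TamR control siRNA library IFIH1 alone was called (DHX58 0.0842, EIF2AK2 0.108, IRF7 0.134). IFIH1 also lost its call without BT483 control siRNA (0.0551), BT483 type 1 (0.118), BT483 with tamoxifen (0.079), T47D-TamR type 1 (0.0779), DMSO (0.0705), or DMSO and tamoxifen (0.118). EIF2AK2 lost its call without BT483 control siRNA (0.112), BT483 type 1 (0.0852), T47D-TamR type 1 (0.0666), DMSO (0.127), or DMSO and tamoxifen (0.138). DDX58 was called without BT483 with tamoxifen (0.0249). Its fitted change was 1.98 without T47D-TamR type 2 and 1.05 without BT483 type 2. Each fit without a type 2 library leaves type 2 to the other line's library, whose own spread cannot be measured. In a fit of the 8 transfected libraries 0 were called.

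Library by library, 5 of the 8 members were at least 1.5-fold higher with type 2 than with control siRNA in BT483, against 5.13% of genes. The ratio was 4.21 for IFIH1 (95% interval 3.79 to 4.68), 4.06 for DDX58 (3.70 to 4.46), 3.13 for IRF7 (2.85 to 3.44), 2.20 for DHX58 (2.002 to 2.43) and 1.96 for EIF2AK2 (1.87 to 2.06). IRF9 lay just under, at 1.49 (1.31 to 1.69), then IRF3 at 1.16 and MAVS at 1.07; TLR3 had a ratio of 3.91 (2.33 to 6.98). Intervals cover counting error only, since each side is 1 library. Amplified reads lacking molecular identifiers are not independent molecules, so even that error may be understated.

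In T47D-TamR 5 of the 8 were at least 1.5-fold higher with type 2, against 6.55% of genes, and the ratios were closer together. IRF7 had the largest, 2.05 (1.87 to 2.25), followed by DHX58 at 1.96 (1.77 to 2.18), DDX58 at 1.79 (1.67 to 1.92), IFIH1 at 1.60 (1.48 to 1.74) and IRF9 at 1.56 (1.299 to 1.88). EIF2AK2 stood at 1.38 (1.32 to 1.44), MAVS at 1.24 and IRF3 at 1.05, and TLR3, at 7 counts against 1, at 7.66 (0.984 to 345). DDX58 and IFIH1 thus had ratios above 4 in BT483 and under 2 in T47D-TamR, whereas DHX58 and IRF9 had similar ratios in both lines.

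Type 1 gave smaller values. With it 0 of the 9 members were called, against 0.00416% of genes (1 gene). DHX58 alone (1 of 9) had an unadjusted p under 0.05, against 3.68% of genes. DESeq2 called 0 members (17 of 24023 genes), and limma 0 (0 of 18729 genes). By edgeR all 9 coefficients were positive, against 52% of genes, with a median of 0.20 against 0.01 over all genes. The highest were IRF7 at 0.42 (SE 0.20), DHX58 at 0.41 (SE 0.15), IRF9 at 0.26 and DDX58 at 0.25 (adjusted p = 0.999 each). The positive sign was lost for TLR3 with DESeq2 and for IRF3 with limma. It was also lost for DDX58, IFIH1, TLR3, MAVS and IRF3 in fits that left out 1 library. In BT483 1 of 8 members was at least 1.5-fold higher (1.4% of genes), IFIH1 at 1.53 (1.34 to 1.74), with DDX58 at 1.496 (1.33 to 1.68) and DHX58 at 1.43 (1.28 to 1.61). In T47D-TamR 0 of 8 were (2.31% of genes), and the helicases parted: DDX58 stood at 0.852 (0.784 to 0.926) and IFIH1 at 0.895 (0.817 to 0.981), but DHX58 at 1.26 (1.13 to 1.41), beside IRF7 at 1.41 (1.27 to 1.55) and EIF2AK2 at 0.976 (0.932 to 1.02).

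Set against each other, with the lines as replicates, type 2 exceeded type 1 by a log2 difference of 1.29 for DDX58 (SE 0.31, adjusted p = 0.175), 1.19 for IFIH1 (SE 0.26, adjusted p = 0.0817), 0.95 for IRF7 (SE 0.21, adjusted p = 0.0755) and 0.63 for DHX58 (SE 0.16, adjusted p = 0.122). No member passed (0 of 9, against 0.47% of genes), although 6 had an unadjusted p under 0.05, against 9.12% of genes. DESeq2 called 4 of the 9, and 354 of 24023 genes in all, and limma 0, with 0 genes called in all. Without T47D-TamR type 2, the BT483 library alone carried type 2, and its own spread could not be measured. The differences were then 1.70 for DDX58, 1.62 for IFIH1 and 1.33 for IRF7. Without BT483 with tamoxifen edgeR called DHX58 (adjusted p = 0.0458) and IRF7 (0.0151). It called IFIH1 without BT483 control siRNA (0.0215), and IRF7 without T47D-TamR control siRNA with tamoxifen (0.0368). DDX58, IFIH1, DHX58, EIF2AK2, IRF7 and IRF9 were higher with type 2 than with type 1 in both lines. So were MAVS (413 against 406 CPM in BT483, 317 against 272 in T47D-TamR) and, near the floor, TLR3 (3.77 against 1.35 CPM in BT483, 7 counts against 0 in T47D-TamR). IRF3 was higher with type 2 in BT483 alone. The share of all genes higher with type 2 in both lines was not counted.

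**Figure D3:**
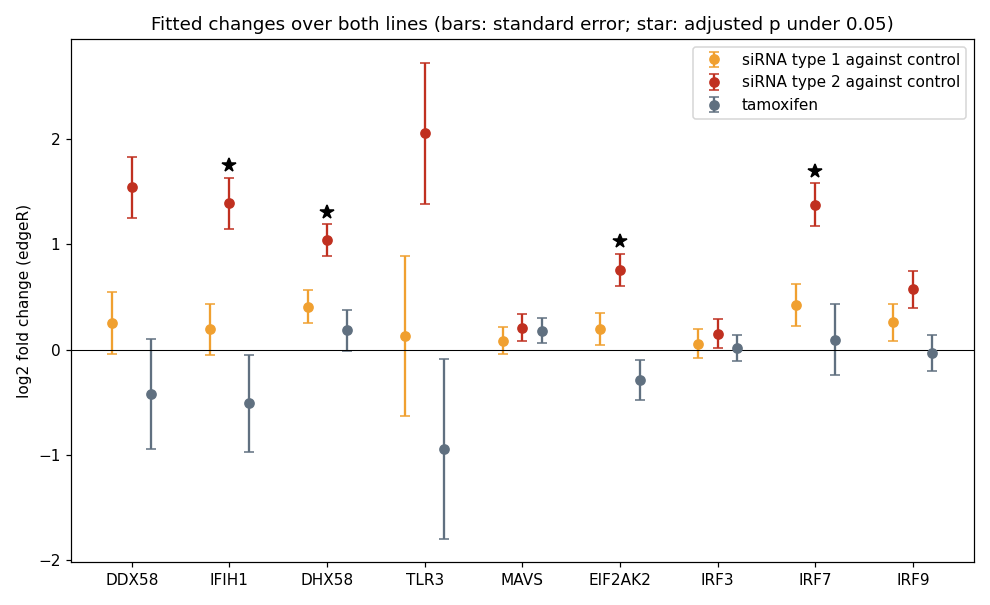
Fitted log2 fold changes of the 9 genes for siRNA type 1, siRNA type 2 and tamoxifen (edgeR, all 11 libraries; bars are standard errors, stars mark an adjusted p under 0.05). IFIH1, DHX58, EIF2AK2 and IRF7 carry stars, all for type 2, and DDX58 at 1.54 does not.

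With both siRNAs pooled as NLK knockdown, 0 of the 9 members were called by edgeR (0.00416% of genes, NLK alone). A total of 4 members, DHX58, EIF2AK2, IRF7 and IRF9, had an unadjusted p under 0.05, against 5.54% of genes. DESeq2 called 0 members (6 of 24023 genes), and limma 0 (0 of 18729 genes). By edgeR the coefficients were positive for all 9, against 53.4% of genes, with a median of 0.76 against 0.02 over all genes. They were 0.76 for DHX58 (SE 0.20), 0.97 for IRF7 (SE 0.35), 1.03 for DDX58 (SE 0.52), 0.51 for EIF2AK2 (SE 0.19) and 0.42 for IRF9 (SE 0.17), each with an adjusted p = 0.88. The standard error of DDX58 was 0.52 in this fit and 0.29 in the fit with a coefficient per siRNA. Without any filter on low counts 4 members were called (DDX58, IFIH1, DHX58 and IRF7), and 249 of 41317 genes in all.

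Whether knockdown differed between the lines was tested directly. The difference, BT483 minus T47D-TamR, was 1.13 for IFIH1 (SE 0.999), 0.94 for DDX58 (SE 1.12), 0.41 for EIF2AK2 (SE 0.37) and 0.41 for IRF7 (SE 0.76), each with an adjusted p = 1 by edgeR. No member was called (0% of genes) or had an unadjusted p under 0.05 (0 of 9, against 3.06% of genes, or 735), and DESeq2 and limma also called 0. This fit pools both siRNAs within each line, so its spread also holds the difference between type 2 and type 1 (1.29 for DDX58, 1.19 for IFIH1). It cannot say whether the larger type 2 ratios of DDX58 and IFIH1 in BT483 differ by line, which was not tested.

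Transfection itself could be set against no transfection in T47D-TamR alone, as 1 library against 1 in each of 2 pairs that share no library. Control siRNA against DMSO gave 3 of 8 members at least 1.5-fold higher, against 3.32% of genes: DDX58 at 2.64 (2.37 to 2.94), IFIH1 at 2.099 (1.88 to 2.35) and DHX58 at 1.69 (1.48 to 1.94). EIF2AK2 at 1.49 (1.42 to 1.57) and IRF7 at 1.48 (1.31 to 1.67) lay just below, IRF9 stood at 1.16 (0.945 to 1.43), IRF3 at 1.08 and MAVS at 0.867 (0.839 to 0.897). With tamoxifen in both libraries, 4 of 8 were at least 1.5-fold higher, against 2.3% of genes: DHX58 at 2.01 (1.78 to 2.28), DDX58 at 1.77 (1.58 to 1.98), IRF7 at 1.73 (1.55 to 1.93) and IFIH1 at 1.70 (1.49 to 1.95). The control pool thus stood above DMSO for the helicases and IRF7 in both pairs. The siRNA and drug libraries differ in transfection and possibly in time, which cannot be told apart.

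**Figure D4:**
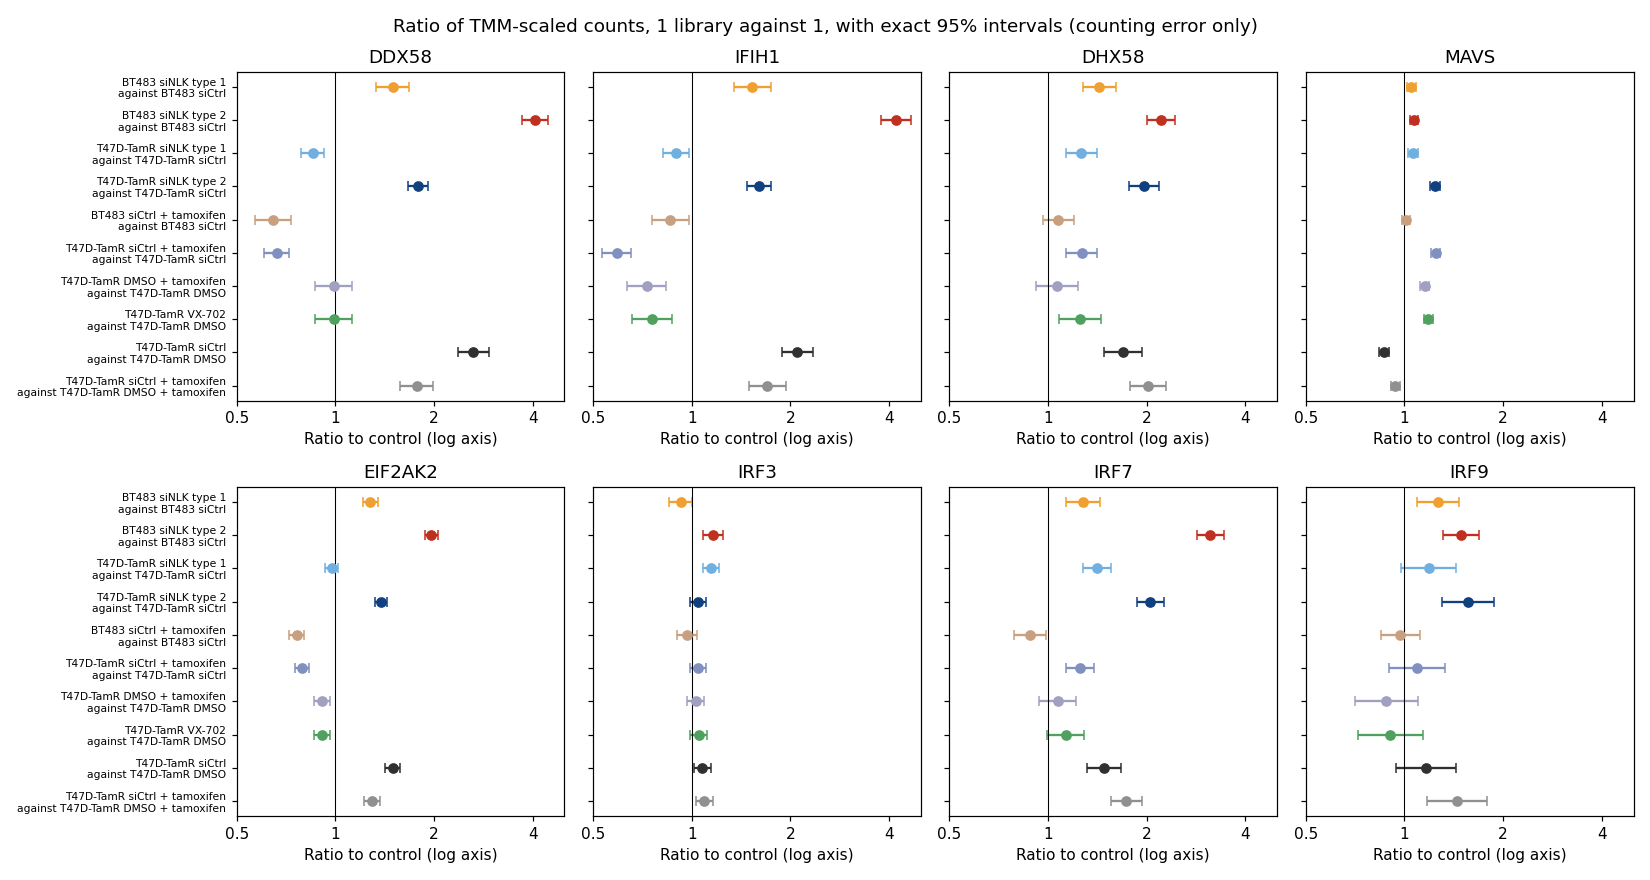
Ratios of TMM-scaled counts for 8 genes in the 10 pairs of libraries (log axis; bars are exact 95% intervals for counting error only; the line marks 1). Control siRNA exceeded DMSO 2.64-fold for DDX58 and 2.099-fold for IFIH1, and the MAVS and IRF3 ratios all lay between 0.867 and 1.25.

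Tamoxifen was compared with its control in 3 pairs. By edgeR 0 of the 9 members passed (0.0416% of genes, 10 genes) or had an unadjusted p under 0.05 (0 of 9, against 6.62% of genes). DESeq2 called 0 members (120 of 24023 genes), and limma 0 (0 of 18729 genes). The fitted log2 changes were -0.51 for IFIH1 (SE 0.46, adjusted p = 0.92), -0.42 for DDX58 (SE 0.52, adjusted p = 0.942), -0.29 for EIF2AK2 (SE 0.19, adjusted p = 0.869), 0.18 for DHX58 (SE 0.19, adjusted p = 0.928) and 0.18 for MAVS (SE 0.12, adjusted p = 0.868). DDX58 stood at 0.645 of control in BT483 (0.57 to 0.73) and at 0.663 in transfected T47D-TamR (0.607 to 0.724), but at 0.988 (0.869 to 1.12) without transfection. IFIH1 stood at 0.86 (0.755 to 0.981), 0.59 (0.533 to 0.654) and 0.728 (0.633 to 0.837) in these pairs, and EIF2AK2 at 0.761, 0.79 and 0.913. Members at least 1.5-fold lower numbered 1 of 8 in BT483 (9.33% of genes), 2 of 8 in transfected T47D-TamR (8.8%) and 0 of 8 without transfection (1.93%). DDX58 was thus lower with tamoxifen in the transfected pairs alone; that difference between pairs was not tested.

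VX-702 had 1 library against 1 with DMSO, and 0 of 8 members were at least 1.5-fold higher (2.16% of genes) or lower (4.41%). IFIH1 stood at 0.757 (0.657 to 0.873), DHX58 at 1.25 (1.08 to 1.45), MAVS at 1.18 (1.15 to 1.22) and DDX58 at 0.988 (0.866 to 1.13). VX-702 and tamoxifen share the DMSO library as control, and IFIH1 was higher in it than in the other untransfected libraries.

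Between the lines, over the 8 transfected libraries with conditions as blocks, 5 of the 9 members were called by edgeR, against 70.7% of 21990 genes, so the members' share lies below the background. TLR3 was 1 of the 5, but in transfected T47D-TamR it held 0 to 7 counts and it passed the filter through BT483, so the size of its difference is not given. BT483 was higher for IRF9 (log2 difference 1.30, SE 0.14, adjusted p = 6.89e-06), MAVS (0.46, SE 0.10, adjusted p = 0.00192) and DHX58 (0.42, SE 0.13, adjusted p = 0.0104), and lower for IRF3 (-0.36, SE 0.11, adjusted p = 0.0136). DDX58 (-0.26, adjusted p = 0.319), EIF2AK2 (0.02, adjusted p = 0.889), IRF7 (0.09, adjusted p = 0.625) and IFIH1 (-0.09, adjusted p = 0.717, positive under upper-quartile scaling, with at least 10 counts required and with limma) did not pass. The call of IRF3 was lost without BT483 type 1 (0.155) or T47D-TamR type 1 (0.141) and with upper-quartile scaling (0.133). It was also lost with at least 10 counts required in every library (-0.25, adjusted p = 0.07) and with limma, where the difference was -0.05 (adjusted p = 0.638). That of DHX58 was lost without BT483 type 2 (0.0643) or T47D-TamR type 2 (0.0705), and DDX58 was called there (-0.51, adjusted p = 0.0332, and -0.52, adjusted p = 0.031).

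The products that IRF3 and IRF7 switch on were near the floor. Of 21 interferon genes, 10 had 0 counts in every library and 5 exceeded 3 counts in at least 1. IFNB1, encoding interferon beta, held 0, 0, 3 and 0 counts in BT483 (control siRNA, type 1, type 2, tamoxifen), 8, 9, 18 and 7 in transfected T47D-TamR, and 0 in each of the 3 untransfected libraries. IFNL1, a lambda interferon, held 2, 7, 55 and 4 counts in BT483, 22, 18, 24 and 20 in transfected T47D-TamR, and 0 (DMSO), 1 (VX-702) and 3 (DMSO and tamoxifen) in the others. In T47D-TamR every transfected library thus exceeded every untransfected one for both genes. The share of genes with this pattern was not counted at such low counts.

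IFNL2 and IFNL3, near-identical copies whose counts may be split uncertainly, held 27 and 18 counts with type 2 in BT483 against 5 and 1 with control siRNA, and 8 to 18 and 10 to 21 counts in transfected T47D-TamR against at most 1. With type 2 in BT483 the IFNL1 ratio to control was 17.8 (4.69 to 150.4), at 55 counts against 2. The control lay under the floor, so the size of this ratio is uncertain. Control siRNA against DMSO was at least 2.64-fold higher for IFNB1 and at least 7.26-fold higher for IFNL1, taking the floor of 3 counts for the DMSO library. Of the 21 genes 4 passed the filter, and 0 were called for type 2 by edgeR (2 with an unadjusted p under 0.05), DESeq2 or limma. Over all genes these tools called 227, 479 and 0.

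**Figure D5:**
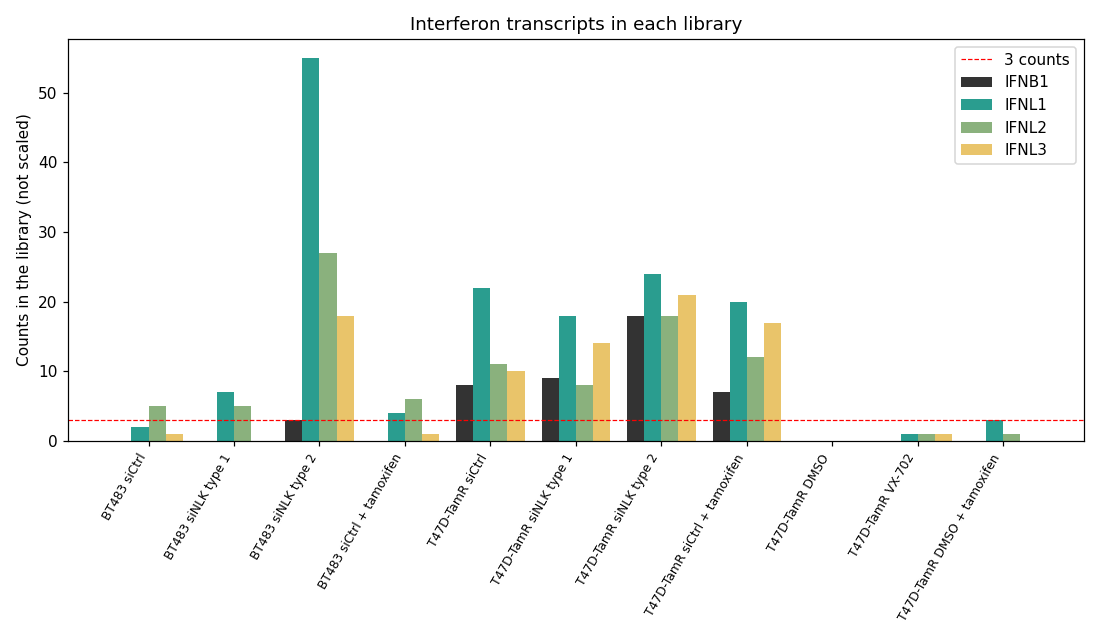
Raw counts of IFNB1, IFNL1, IFNL2 and IFNL3 in each library (linear axis from 0, not scaled for depth; the dashed line marks 3 counts). IFNL1 reached 55 counts with siRNA type 2 in BT483, and none of the 4 genes exceeded 3 counts in the 3 untransfected T47D-TamR libraries.

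Other genes of the pathway were read from lists, and their edgeR counts for type 2 stand beside the 0.945% of genes that edgeR called. Of 19 regulators of the RIG-I and MDA5 relay, 3 rose: TNFAIP3, a deubiquitinase that restrains it (1.26, adjusted p = 0.0143), IKBKE, a kinase that acts on IRF3 and IRF7 (0.71, adjusted p = 0.0434), and TRIM25, the ligase known for activating RIG-I (0.70, adjusted p = 0.0206). DDX60 stood at 1.25 (adjusted p = 0.0799), and the list's median was 0.30. Of 7 Toll-like receptor and adaptor genes, 1 rose, MYD88 (0.79, adjusted p = 0.016). TLR2 stood at 0.97 (adjusted p = 0.367), and TICAM1, the adaptor of TLR3, at 0.70 (adjusted p = 0.0617).

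Of 11 genes for interferon receptors and their JAK-STAT relay, 2 rose, among them STAT2, a partner of IRF9 (1.06, adjusted p = 0.00257); the list's median was 0.05. Of 5 feedback genes, 1 rose, USP18 (1.43, adjusted p = 0.00818), which removes ISG15 from proteins, while ISG15 stood at 2.07 (adjusted p = 0.076). Other members of the IRF family gave 0 of 5 calls (2 with an unadjusted p under 0.05), with IRF1 at 0.75 (adjusted p = 0.142). The 14 genes around PKR and double-stranded RNA binding gave 0 calls (3 with an unadjusted p under 0.05) and a median of 0.01, with the editing enzyme ADAR at 0.42 (adjusted p = 0.265) and DICER1 at -0.34 (adjusted p = 0.419). DESeq2 and limma called 0 in each of these last 2 lists. In the 4 lists with calls, limma called 0 genes, as it did over all 18729 genes it tested for type 2. DESeq2 called 5 of the relay, 3 of the Toll-like receptor, 2 of the JAK-STAT and 2 of the feedback genes. Over all genes it called 479 of 24023. With each of the 11 libraries left out in turn, a check added after the data were seen, STAT2 alone of these 7 called genes kept its call in every fit. Without the T47D-TamR control siRNA library it was the 1 gene still called, and 2 remained without the BT483 type 2, the T47D-TamR DMSO or the T47D-TamR DMSO and tamoxifen library. A total of 3 remained without the BT483 control siRNA or the T47D-TamR type 2 library, 4 without BT483 type 1 and 5 without T47D-TamR type 1. IKBKE alone was lost without T47D-TamR control siRNA with tamoxifen (adjusted p = 0.0514), and all 7 remained without BT483 control siRNA with tamoxifen or without VX-702. All 7 coefficients stayed positive.

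Genes known as strong interferon targets had larger fitted changes but no calls. The 2-5A synthetase system gave 0 of 4 (4 with an unadjusted p under 0.05), with OAS2 at 2.84 (adjusted p = 0.294) and OASL at 2.39 (adjusted p = 0.0664), and DESeq2 called 3. Among 6 readout genes of the interferon response 0 were called (5 with an unadjusted p under 0.05), with IFI44L at 3.16 (adjusted p = 0.39), IFIT1 at 2.47 (adjusted p = 0.305) and a median of 2.31, and DESeq2 called 5. DNA sensing genes gave 0 of 3 (1 with an unadjusted p under 0.05; DESeq2 0), with IFI16 at 1.56 (adjusted p = 0.278) and TMEM173 at 0.23 (adjusted p = 0.857). limma called 0 in all 3 lists. Over all genes limma called 0 of 18729 for type 2, and DESeq2 479 of 24023. With control siRNA against DMSO, 6 of 6 readout genes and 3 of 4 of the 2-5A system were at least 1.5-fold higher, against 3.32% of genes. Their median log2 differences were 2.77 and 1.78. In the pair with tamoxifen in both libraries, 6 of 6 and 3 of 4 were at least 1.5-fold higher, against 2.3% of genes. The medians there were 2.90 and 1.93. For tamoxifen against its control the readout medians were -0.83 in BT483 and, in T47D-TamR, -0.56 with and -0.49 without transfection. In the tamoxifen fit 0 of these 6 genes were called or had an unadjusted p under 0.05, by edgeR, DESeq2 or limma. Over all genes edgeR called 0.0416% there, and 6.62% had an unadjusted p under 0.05.

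Genes with the most similar pattern were taken by the root-mean-square difference of log2 CPM over the 11 libraries after removing each line's mean. For DDX58 they included IFIT5 (0.157) and IFIH1 (0.163), and for IFIH1 they were IFIT5 (0.16), DDX58 (0.163) and PARP14 (0.17). DHX58 lay nearest PARP10 (0.107), C19orf66 (0.113) and TRIM21 (0.134), EIF2AK2 nearest PNPT1 (0.129), LAP3 (0.144) and TRIM14 (0.156). Those of IRF7 included SAMHD1 (0.0912) and HLA-F (0.122), and IRF9 lay nearest CLDN1 (0.0951), ZC3HAV1 (0.1003) and PHF11 (0.101). MAVS and IRF3 spanned under 1 on this scale (0.45 and 0.33) and TLR3 averaged under 5 CPM, so these 3 were not matched. DDX58 and IFIH1 were the sole members to be among each other's nearest genes.

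By position on GRCh38 (GENCODE 29) the 9 genes are spread over 8 chromosomes. DDX58 lies at chr9:32455705-32526324 on the minus strand, IFIH1 at chr2:162267079-162318703 (minus) and DHX58 at chr17:42101404-42112733 (minus). EIF2AK2 shares chromosome 2 with IFIH1 at chr2:37099210-37157065 (minus). IRF7 lies at chr11:612553-615999 (minus), IRF9 at chr14:24161053-24166565 (plus), IRF3 at chr19:49659569-49665875 (minus), MAVS at chr20:3846799-3876123 (plus) and TLR3 at chr4:186069152-186088069 (plus).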

How the data were processed

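Stranded poly(A) libraries were read from both ends, per the labels. Alignment was to GRCh38, as the submitters' processing notes say; aligner, annotation and counting settings: not given in the sources used here. Raw counts per symbol were deposited, with per-library log2(TPM + 1) values and a log2 TPM table that the authors had given nearly equal distributions across libraries. Groups came from sample titles, and 0 columns were left unmapped.

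Counts were tested with edgeR 4.0.16 in R 4.3.3: TMM, filterByExpr, robust quasi-likelihood F test, 2-sided, Benjamini-Hochberg adjustment over all genes, threshold 0.05. Fits over all 11 libraries were additive, with line and arm (siRNA or drug) as a block and coefficients for tamoxifen, VX-702 and NLK knockdown (or each siRNA, or each line); the line test used 8 libraries. Lone libraries are thus given the spread of the rest. In all there were 7 such tests. The 10 library pairs have no p-value; ratios carry exact binomial 95% intervals, and log2 differences a prior count of 2. DESeq2 1.42.0, limma 3.58.1 on the deposited log2 table, other filters and scalings, and leaving out each library were the alternatives. The tests were tested on simulated data.

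The members and lists were chosen with earlier results of these data known. Every member is named; lists give 2 to 4 genes of at least 1 CPM with the largest change, and nearest patterns the 3 closest genes of at least 5 CPM for members spanning at least 1. Promoters came from RefSeq. A few genes of the lists and of the most similar patterns are not reported here by name.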

Additional observations from a re-analysis of the deposited data

Results flagged for a closer look

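For 2 members the level with tamoxifen lay below control in BT483 and above it in both T47D-TamR pairs, and this difference between lines was not tested. For IRF7 the log2 difference was -0.18 in BT483, against 0.32 in transfected and 0.10 in untransfected T47D-TamR, which puts BT483 at -0.39 relative to the mean of the other 2. For IRF3 it was -0.05 against 0.06 and 0.04, or -0.1 relative to their mean. With 1 library in each group neither value has a spread of its own, and the counting intervals of all 3 IRF3 ratios include 1. For IRF7 the interval includes 1 in untransfected T47D-TamR (0.941 to 1.21), but not in BT483 (0.784 to 0.987) or transfected T47D-TamR (1.13 to 1.38).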

How the results depend on the processing

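No paired analysis was possible because each group holds 1 library, so no replicate number links libraries of different groups; the blocks of the fits are line, arm or condition. Of 1309 alternative values, 1118 kept their direction and side of the threshold, or for counts stayed within 1.5 times, and 47 changed sign; where values changed, the cause was not tested. Members called for type 2 were 4 in the reported fit, 0 with limma and 0 with the 8 transfected libraries, and 0 to 5 when 1 library was left out. For knockdown they were 0, but 4 without a filter. For type 2 against type 1 they were 0, but 4 with DESeq2, 1 without a filter and 0 to 3 with a library left out. For line they were 5, but 3 with at least 10 counts in every library, 3 with limma, and 4 to 5 with a library left out. For type 1, tamoxifen and the line difference of knockdown they were 0 in every alternative.

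Counts over all genes moved more. For knockdown (1 gene) they were 6 with DESeq2, 249 without a filter, 0 with at least 10 counts, 0 with limma, 0 with 8 libraries and 0 to 2 with a library left out. For tamoxifen (10) they were 120, 513, 0, 0, 3 with 6 libraries, and 0 to 81. For type 1 (1) they were 17, 13, 0, 0, 0 with 8 libraries, and 0 to 12. For type 2 (227) they were 479 with DESeq2, 447 without a filter, 0 with limma, 46 with 8 libraries, and 32 to 580. For type 2 against type 1 (113) they were 354, 339 without a filter, 50 with at least 10 counts, 0 with limma, 37 with 8 libraries, and 0 to 406. For the line difference of knockdown (0) they were 21 without a filter and 0 to 5; the fit without BT483 control siRNA was not run, as its coefficient cannot be estimated. For line (15543) they were 14535 to 15363. In the pairs, BT483 type 1 had 2 members at least 1.5-fold higher with library totals and 2 with the deposited log2 table (1 reported). With those log2 values 0 (1 reported) were at least 1.5-fold lower with tamoxifen in BT483 and 1 (2 reported) in transfected T47D-TamR.

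Some coefficients changed sign. Tamoxifen on IRF3 was -0.0027 without a filter, -0.017 with limma and -0.019 with 6 libraries, and on IRF9 0.0099 with limma. Type 1 gave -0.17 for TLR3 with DESeq2 and -0.0060 for IRF3 with limma. The line difference of knockdown was 0.0097 for MAVS and 0.018 for IRF3 with limma. Line gave IFIH1 0.069 with upper-quartile scaling, 0.018 with at least 10 counts and 0.030 with limma. With 1 library left out in turn, ranges that crossed 0 were, for tamoxifen, -0.020 to 0.028 (IRF3), -0.13 to 0.27 (IRF7) and -0.11 to 0.043 (IRF9). For type 1 they were -0.014 to 0.57 (DDX58), -0.16 to 0.53 (IFIH1), -3.58 to 0.39 (TLR3), -0.045 to 0.16 (MAVS) and -0.11 to 0.16 (IRF3). For IRF3 they were -8.9e-06 to 0.29 with type 2 and -0.051 to 0.26 for type 2 against type 1. For the line difference of knockdown they were -0.10 to 0.60 (DHX58), -1.44 to 4.44 (TLR3), -0.19 to 0.067 (MAVS), -0.24 to 0.18 (IRF3), -0.38 to 1.00 (IRF7) and -0.098 to 0.39 (IRF9). For line they were -0.36 to 0.16 (IFIH1), -0.10 to 0.14 (EIF2AK2) and -0.14 to 0.29 (IRF7).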
